A study of Homo sapiens with 32 samples.

Results

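TXNIP and ARRDC1, ARRDC2, ARRDC3 and ARRDC4 belong to the alpha-arrestins, and their expression was followed in HEK293 cells given epidermal growth factor (EGF), angiotensin II (AngII) or both. The 5 genes were found by symbol and are 5 of the 57773 genes in the count tables. The sixth human alpha-arrestin, ARRDC5, had 1 count in 1 control library after 24 h and 0 counts in the other 30 libraries, where a count of 0 still allows up to 3 counts. It did not pass the filter on low counts and was not tested.

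Alpha-arrestins are adaptor proteins with the fold of the beta-arrestins. Most carry PPxY motifs in their tail, through which they bring ubiquitin ligases of the NEDD4 family to membrane proteins that are to be ubiquitinated, internalised or sorted. TXNIP (thioredoxin-interacting protein) also binds thioredoxin and restrains glucose uptake by acting on the glucose transporters GLUT1 and GLUT4. TXNIP and ARRDC4 are known targets of the glucose-sensing factors MondoA (MLXIP) and ChREBP (MLXIPL), which bind with their partner MLX to carbohydrate response elements. ARRDC1 recruits the ESCRT machinery to the plasma membrane and buds vesicles there, and ARRDC3 has been tied to the trafficking of the beta2-adrenergic receptor and of integrin beta 4.

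HEK293 is a human embryonic kidney line. All groups, the control included, had been transiently transfected with the angiotensin II receptor AT1R and kept in medium without serum, so that none of them shows untransfected cells, and a transient transfection gives a mixture of cells with and without the plasmid. The 4 conditions were control, AngII (1 nM), EGF (10 µg/l) and EGF+AngII (both at these doses), each sampled after 6 h and after 24 h. Ribosomal RNA was depleted and the remaining RNA was sequenced. There were 4 libraries per condition and time, except for EGF+AngII after 24 h, where counts of 3 libraries were analysed. The labels give no replicate numbers, and those used here follow the order in which the libraries of a group are listed. The labels do not say whether the libraries of a group came from separate cultures, and the p-values then measure only the spread between these libraries, which may be technical.

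The 16 libraries after 6 h held 3881841 to 8540815 counts and the 15 after 24 h held 6646227 to 33070903. After 24 h, genes of the small nuclear RNA U1 took 8.92 to 57.2% of the counts, against 0.0317 to 0.301% after 6 h, and protein-coding genes took 20.8 to 63.4% against 81.4 to 84.7%. The spread between libraries of a group (common biological coefficient of variation) was 29.1% after 24 h and 10.6% after 6 h. The transfected receptor gene AGTR1 was present in all 31 libraries. Of the markers of HEK293 cells, VIM, CDH2, NEFL and NEFM were expressed in every library, while PAX2 and NEFH stayed at or under 1.16 and 2.21 FPM (fragments per 1000000, defined with the levels). Markers of blood cells (PTPRC), macrophages (CD68) and differentiated kidney (UMOD, NPHS1) were at or under 0.693 FPM in every library, and so was COL1A2. Other markers of this list were present, AQP1 (differentiated kidney) in every library at 0.389 to 5.09 FPM, COL1A1 at 8.45 to 30.3 FPM and ACTA2 at 4.41 to 17.6 FPM, while CDH1 (epithelium) ranged from 0 to 2.76 FPM.

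On GRCh37, the build of the deposited counts (hg19), TXNIP (ENSG00000117289) spans positions 145438490 to 145442635 of chromosome 1 and ARRDC4 (ENSG00000140450) positions 98503933 to 98517063 of chromosome 15, both on the plus strand. ARRDC1 (ENSG00000197070) is on chromosome 9 from 140500137 to 140509812 and ARRDC2 (ENSG00000105643) on chromosome 19 from 18111941 to 18124911, again both plus, and ARRDC3 (ENSG00000113369) is on the minus strand of chromosome 5 from 90664448 to 90679134. ARRDC1, ARRDC2 and ARRDC3 each overlap at least 1 other annotated gene, among them the antisense genes ARRDC1-AS1 and ARRDC3-AS1. The strand setting of the counting was not given in the sources used here, so that reads of these genes and of their antisense partners cannot be told apart and their values are less certain than those of TXNIP and ARRDC4, which overlap no annotated gene.

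The promoters of TXNIP and ARRDC4 are shown because these were the members that changed, in opposite directions, and because both are known targets of the same factors. Each sequence is the 250 bases before a transcription start given by RefSeq (table of build GRCh38.p14), found by exact match at 1 place in GRCh37, at chr1:145438240-145438489 for TXNIP and chr15:98503683-98503932 for ARRDC4, both on the plus strand and written 5′ to 3′. Capitals mark every match on either strand to CACGNG, the motif that occurs as a pair in a carbohydrate response element.
TXNIP: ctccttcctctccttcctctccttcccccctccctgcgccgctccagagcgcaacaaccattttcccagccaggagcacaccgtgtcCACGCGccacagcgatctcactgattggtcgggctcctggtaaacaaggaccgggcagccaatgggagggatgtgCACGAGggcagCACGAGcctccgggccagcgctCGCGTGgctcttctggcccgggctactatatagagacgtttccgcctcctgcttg
ARRDC4: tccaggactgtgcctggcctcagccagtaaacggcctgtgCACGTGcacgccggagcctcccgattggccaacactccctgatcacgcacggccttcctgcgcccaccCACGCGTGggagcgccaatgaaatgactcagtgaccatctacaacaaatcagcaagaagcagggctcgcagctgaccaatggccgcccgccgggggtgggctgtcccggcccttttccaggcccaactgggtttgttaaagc
TXNIP held 4 matches, and those from 88 to 83 and from 77 to 72 bases before the start form the tandem element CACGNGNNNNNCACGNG, with a spacer of 5 bases. ARRDC4 held 3 matches, of which 2 overlap each other, and no tandem element of this spacing. Among the members that were not called, 1 window of ARRDC2 also held 3 matches and 1 window of ARRDC3 held 1. The ARRDC4 match from 210 to 205 bases before the start is also the E-box CACGTG.

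All 8 RefSeq promoter windows of the 5 members (300 bases each, 250 before the start and 50 after it) were searched on both strands, beside the 35116 windows of the whole table. CACGNG was in 30.5% of all windows and the tandem element in 0.057%, which is 20 windows. Only this pair, with both motifs in the same orientation, was searched. A window without it may still hold a carbohydrate response element of another form. Among the members' windows, the tandem element occurred in 1 window of TXNIP alone. A forkhead motif (GTAAACA, in 3.42% of all windows) was found in 1 window each of TXNIP and ARRDC3, and an AP-1 motif (TGANTCA, in 7.71%) in ARRDC4 and in 1 window of ARRDC2. An EGR motif (GCGNGGGCG, in 9.43%) was found in ARRDC1 and in 1 window of ARRDC3. The E-box CACGTG (in 7.26%) was found in ARRDC4 alone. A CCAAT box (CCAAT, in 34.6%) was found in 1 window of each of the 5 members, and a TATA box (TATAAA, in 11.5%) in 1 window of ARRDC2. No member's window held a serum response element (CCWWWWWWGG with W for A or T, in 1.29%). These are matches of letters, and binding was not measured.

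Levels are given as FPM, fragments per 1000000 of the library size scaled by TMM (trimmed mean of M values), and are compared between genes only per kb of exons. The length taken was the union of all annotated exons of a gene, whichever transcripts the cells make. The order of the genes and their shares depend on this length, and no other was tried. Over the control libraries after 6 h, TXNIP had the highest level of the family with 12 ± 1.58 FPM per kb (mean ± SD, n = 4). ARRDC4 followed with 8.19, ARRDC1 with 5.36, ARRDC2 with 3.17 and ARRDC3 with 1.93 FPM per kb, and no 2 neighbours in this order overlapped in any library. With EGF the order changed, because ARRDC4 stood first with 14.9 FPM per kb and TXNIP followed with 7.40. With EGF+AngII, ARRDC4 had 16.7 FPM per kb, and TXNIP (6.86) and ARRDC1 (6.85) overlapped. Of the summed level per kb of the 5 members, TXNIP held 39.1% in control, 21.8% with EGF and 18.7% with EGF+AngII, and ARRDC4 held 26.7, 43.7 and 45.5%. In bulk RNA, fewer cells that express a gene and less RNA of it per cell cannot be told apart.

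The first question was how EGF acts on the family. After 6 h of EGF, TXNIP fell and ARRDC4 rose, while ARRDC1, ARRDC2 and ARRDC3 did not pass the test. To be called, a gene needed an adjusted p (Benjamini-Hochberg FDR) under 0.05 in edgeR's quasi-likelihood test over all genes tested, a change of more than 1.5-fold and a mean of more than 5 FPM in the higher group. Of the 5 members, 1 was called higher and 1 lower, while 1.73% of the 18618 genes tested were called, 1.04% higher and 0.688% lower. In 2 of the 5 members the EGF and control libraries did not overlap, against 12% of all genes tested.

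TXNIP stood at 49.3, 46.6, 37.7 and 38.9 FPM in the 4 control libraries after 6 h and at 30.1, 26.6, 25.7 and 24.0 FPM with EGF. Every EGF library was thus under every control library. The means were 43.1 ± 5.68 FPM (SD, n = 4) in control and 26.6 ± 2.57 FPM with EGF. TXNIP fell by 0.70 on the log2 scale (SE 0.12, 95% interval -0.94 to -0.46), which is 1.62-fold lower (adjusted p = 6e-04). The fall was present in both library series, with log2 ratios of means of -0.757 in the first and -0.623 in the second. These series were taken from the library numbers and are not named in the labels. After 6 h the numbers run without a break, and the second series was taken to begin where the order of conditions starts again. After 24 h the numbers have a gap at that place.

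ARRDC4 stood at 35.9, 32.5, 33.2 and 31.6 FPM in control and at 64.5, 59.6, 61.2 and 56.6 FPM with EGF after 6 h. All EGF libraries were above all control libraries, with means of 33.3 ± 1.83 FPM (SD, n = 4) in control and 60.5 ± 3.28 FPM with EGF. The rise was 0.86 on the log2 scale (SE 0.09, 95% interval 0.68 to 1.04), or 1.82-fold (adjusted p = 7.6e-07). It ranked 17 by p among the 18618 genes tested, and TXNIP ranked 136. Within the first and the second library series, the log2 ratio of ARRDC4 was 0.86 and 0.864.

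**Figure D1:**
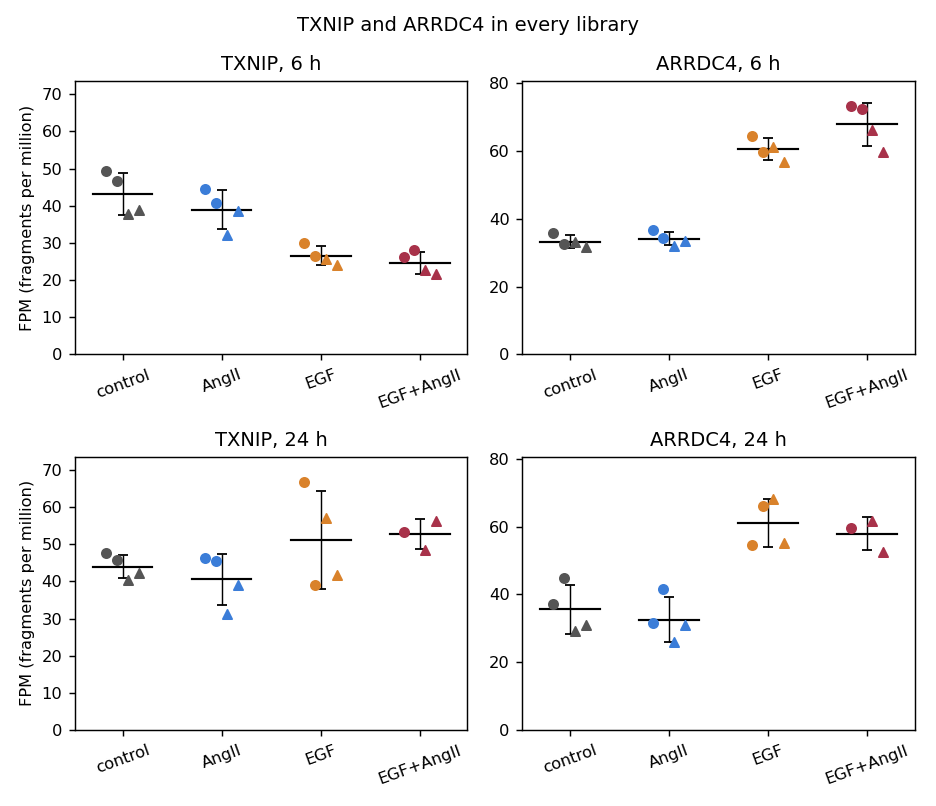
Level of TXNIP and ARRDC4 (FPM) in every library of the 4 conditions after 6 h and after 24 h, with circles for the first and triangles for the second library series and bars for the mean ± SD. After 6 h the EGF libraries of TXNIP sit at 24.0 to 30.1 FPM, all under the control libraries, and those of ARRDC4 at 56.6 to 64.5 FPM, all above them.

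The second question was whether AngII acts on the family or changes its response to EGF. With AngII alone after 6 h, none of the 5 members was called. TXNIP stood at 44.5, 40.7, 32.2 and 38.6 FPM, against 37.7 to 49.3 FPM in control, and the ranges overlapped. Its log2 difference was -0.14 (95% interval -0.38 to 0.10, adjusted p = 0.99). ARRDC4 stood at 36.7, 34.2, 32.0 and 33.6 FPM and also overlapped with control, with a log2 difference of 0.04 (95% interval -0.15 to 0.23, adjusted p = 0.99). Of all genes tested, 0% were called for AngII against control after 6 h by edgeR, with 845 genes at an unadjusted p under 0.05, and DESeq2 called 0 as well.

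With EGF+AngII after 6 h, TXNIP fell and ARRDC4 rose, as they had with EGF, in a comparison that shares the control libraries. TXNIP stood at 26.1, 28.2, 22.8 and 21.5 FPM (mean 24.7 ± 3.03, SD, n = 4), under every control library. It fell by 0.81 on the log2 scale (SE 0.12, 95% interval -1.06 to -0.56), or 1.75-fold (adjusted p = 0.00011). ARRDC4 stood at 73.3, 72.5, 66.0 and 59.6 FPM (mean 67.8 ± 6.40, SD, n = 4), above every control library. It rose by 1.03 on the log2 scale (SE 0.09, 95% interval 0.85 to 1.21), or 2.04-fold (adjusted p = 3.2e-08), and ranked 13 by p. Within the first and second library series, the log2 ratios were -0.821 and -0.789 for TXNIP and 1.09 and 0.956 for ARRDC4. Among all genes tested, 1.95% were called, 1.39% higher and 0.564% lower. The libraries of the 2 groups did not overlap in 3 of the 5 members (TXNIP, ARRDC4 and ARRDC2), against 12.1% of all genes tested.

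Against AngII alone, a comparison that uses no control library, TXNIP was again lower and ARRDC4 higher with EGF+AngII after 6 h. TXNIP fell by 0.67 on the log2 scale (SE 0.12, adjusted p = 0.0011) and ARRDC4 rose by 0.99 (SE 0.09, adjusted p = 6.3e-08). In both genes the 2 groups did not overlap, which was so for 2 of the 5 members and 12.8% of all genes tested, while 1.87% of these were called, 1.39% higher and 0.483% lower. The EGF+AngII libraries themselves are part of both comparisons.

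No added effect of AngII on top of EGF was detected for a member after 6 h. ARRDC4 was 0.16 higher on the log2 scale with EGF+AngII than with EGF (95% interval -0.0027 to 0.33, unadjusted p = 0.053, adjusted p = 0.68), and the ranges of 59.6 to 73.3 and 56.6 to 64.5 FPM overlapped. For TXNIP the log2 difference was -0.11 (95% interval -0.36 to 0.14, adjusted p = 0.82). ARRDC2 was the only member whose libraries did not overlap between EGF+AngII (17.98 to 22.3 FPM) and EGF (15.4 to 16.7 FPM), against 5.59% of all genes tested, and its log2 difference of 0.33 had an adjusted p of 0.68. The interaction, the effect of EGF+AngII beyond the sum of both single effects, was 0.03 for TXNIP (95% interval -0.32 to 0.38) and 0.12 for ARRDC4 (95% interval -0.13 to 0.38) on the log2 scale. By edgeR, 0% of all genes tested were called for EGF+AngII against EGF and 0% for the interaction, with 1352 and 1491 genes at an unadjusted p under 0.05, and DESeq2 called 0 in both.

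The counts of ARRDC4 and TXNIP within a library give a measure of their opposite changes that needs no scaling between libraries. After 6 h there were 0.699 to 0.878 counts of ARRDC4 per count of TXNIP in the control libraries and 0.825 to 0.995 with AngII. The ratio was 2.14 to 2.38 with EGF and 2.57 to 2.89 with EGF+AngII, so that no library of these 2 groups came near those without EGF. The EGF+AngII libraries also lay above all EGF libraries in this ratio, while AngII and control overlapped. That separation was not tested, and no share over all genes stands beside it. After 24 h the ratio was 0.726 to 0.983 in control and 0.681 to 0.919 with AngII. It was 0.817 to 1.69 with EGF and 0.933 to 1.27 with EGF+AngII, and these ranges overlapped with control.

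**Figure D2:**
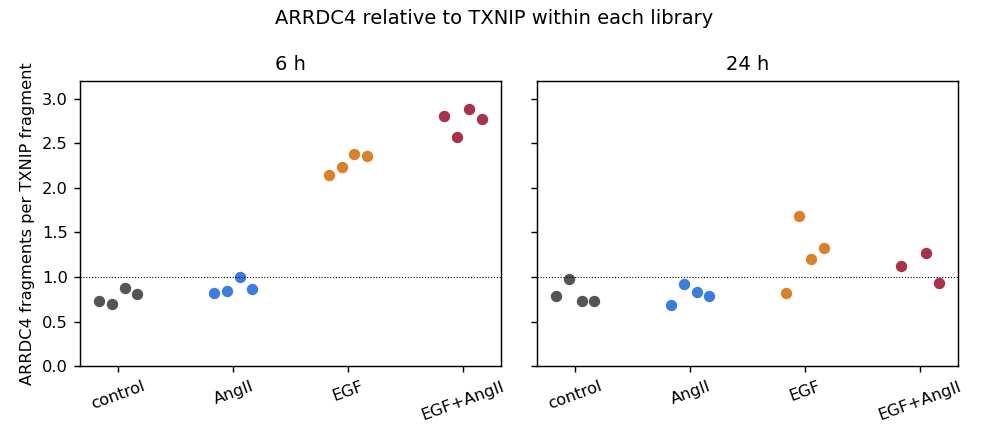
Counts of ARRDC4 per count of TXNIP in every library, by condition, after 6 h and 24 h, with a dotted line at equal counts. After 6 h, the libraries with EGF or EGF+AngII sit at 2.14 or higher and all others under 1, whereas after 24 h both groups with EGF overlap with control. The EGF+AngII libraries sit above the EGF libraries after 6 h, a separation that was not tested.

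The third question was whether the responses lasted until 24 h. The tables of both times were normalised separately, and only effects, not levels, are compared between them. After 24 h no member was called in any comparison, and few genes were called at all. These were 0.0316% of the 22174 genes tested for EGF against control, 0.0271% for EGF+AngII against control and 0.0406% for EGF+AngII against AngII.

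After 24 h ARRDC4 was higher in every library with EGF than in any control library, but the difference missed the FDR threshold. It stood at 37.2, 44.9, 29.4 and 30.9 FPM in control and at 54.6, 66.2, 68.2 and 55.3 FPM with EGF, and these groups did not overlap (1 of 5 members, against 4.43% of all genes tested). The means were 35.6 ± 7.09 and 61.1 ± 7.11 FPM (SD, n = 4). The log2 difference was 0.78 (SE 0.15, 95% interval 0.47 to 1.095), 1.72-fold, with an unadjusted p of 4e-05, which ranked 11, and an adjusted p of 0.072. The log2 ratio was 0.557 in the first library series and 1.04 in the second. ARRDC4 was called with DESeq2 (adjusted p = 0.0017), without the filter on low counts (0.00035), with the library series as a block (0.0091), over protein-coding genes alone (0.031, chosen after seeing the data) and without control replicate 2 (0.023), in a range of 0.00035 to 0.24 over all alternatives. With the U1 genes left out, the adjusted p was 0.067.

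With EGF+AngII after 24 h, ARRDC4 stood at 59.7, 61.6 and 52.6 FPM (mean 58.0 ± 4.76, SD, n = 3), again above every control library. The log2 difference was 0.70 (SE 0.16, 95% interval 0.37 to 1.04, adjusted p = 0.21) against control and 0.83 (SE 0.16, 95% interval 0.49 to 1.17, adjusted p = 0.059) against AngII, where ARRDC4 was at 31.5, 41.7, 25.9 and 31.0 FPM. DESeq2 called both, with adjusted p of 0.045 and 0.0016, as did the fit with the library series as a block, with log2 differences of 0.749 (adjusted p = 0.034) and 0.877 (adjusted p = 0.006), and the ranges over all alternatives were 0.0043 to 0.83 and 0.00023 to 0.44. Within the first and second library series, the log2 ratio against control was 0.541 and 0.922, and the first of these rests on 1 EGF+AngII library.

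The lower level of TXNIP with EGF was not seen after 24 h. It stood at 47.6, 45.7, 40.5 and 42.3 FPM in control and at 66.9, 39.2, 57.0 and 41.6 FPM with EGF, so that 2 of the 4 EGF libraries lay above all control libraries and 1 lay under them. The means were 44.01 ± 3.22 and 51.2 ± 13.1 FPM (SD, n = 4), with a log2 difference of 0.22 (95% interval -0.11 to 0.54, adjusted p = 0.77), and its log2 ratio was 0.185 in the first and 0.253 in the second library series. The interval excludes a fall of the size measured after 6 h. With EGF+AngII, TXNIP stood at 53.3, 48.3 and 56.3 FPM (n = 3), above all 4 control libraries and above the AngII libraries at 46.2, 45.4, 31.4 and 39.2 FPM. The log2 difference was 0.26 against control (95% interval -0.08 to 0.61, adjusted p = 0.99) and 0.38 against AngII (unadjusted p = 0.034, adjusted p = 1). Groups that did not overlap were seen in 2 of 5 members for EGF+AngII against control (7.18% of all genes tested) and in 3 of 5, ARRDC1 being the third, against AngII (6.95%).

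The effect of EGF on TXNIP differed between 24 h and 6 h. In a joint fit of all 31 libraries, the effect after 24 h minus that after 6 h was 0.91 on the log2 scale for EGF (SE 0.20, 95% interval 0.50 to 1.32, adjusted p = 0.042) and 1.05 for EGF+AngII (SE 0.21, 95% interval 0.63 to 1.48, adjusted p = 0.029). At an FDR under 0.05 alone, 0.173% of the 21932 genes tested were called for EGF and 0.123% for EGF+AngII. Both comparisons share the control libraries. With DESeq2, both calls held, with adjusted p of 0.0077 for EGF and 0.002 for EGF+AngII. They also held without the filter on low counts (adjusted p of 0.0076 and 0.00061). When libraries were blocked by series, the adjusted p were 0.0082 and 0.0027. At an FDR of 0.01, neither was called in the main fit. The call for EGF was lost when any 1 of 12 of its 16 libraries was left out (then differences of 0.757 to 0.96, adjusted p of 0.056 to 0.14), and that for EGF+AngII when any 1 of 6 of its 15 libraries was (0.982 to 1.08, adjusted p of 0.051 to 0.098). For ARRDC4 the difference was -0.08 with EGF (95% interval -0.44 to 0.27, adjusted p = 0.92) and -0.35 with EGF+AngII (95% interval -0.72 to 0.02, adjusted p = 0.69). The ARRDC1, ARRDC2 and ARRDC3 differences were not called either. Which part of the TXNIP difference goes with the larger share of U1 counts after 24 h was not tested beyond leaving the U1 genes out, where it was 0.909 for EGF and 1.05 for EGF+AngII.

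AngII alone left no called member after 24 h. The log2 difference was -0.12 for TXNIP (95% interval -0.44 to 0.21) and -0.13 for ARRDC4 (95% interval -0.44 to 0.19), each with an adjusted p of 1. Against EGF, EGF+AngII differed by 0.05 for TXNIP (95% interval -0.30 to 0.39) and -0.08 for ARRDC4 (95% interval -0.42 to 0.26), and the interaction was 0.16 (95% interval -0.31 to 0.64) and 0.05 (95% interval -0.41 to 0.51). Over all genes tested, edgeR called 0% for AngII against control, 0% for EGF+AngII against EGF and 0% for the interaction after 24 h, with 552, 747 and 525 genes at an unadjusted p under 0.05, and DESeq2 called 0 in each.

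**Figure D3:**
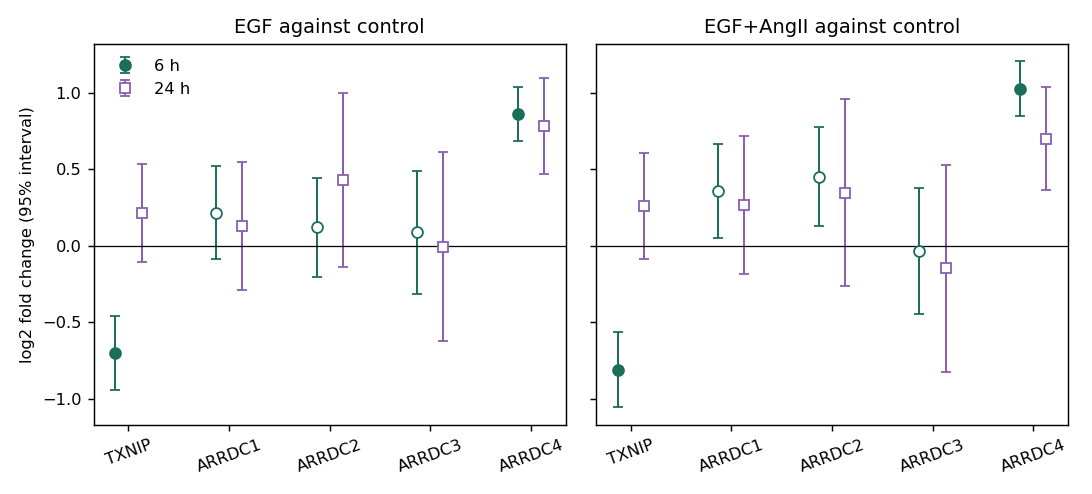
Log2 fold change against control of the 5 members with EGF (left) and EGF+AngII (right) after 6 h (circles) and 24 h (squares), with bars for the 95% interval and filled symbols for called members. Only TXNIP and ARRDC4 carry filled symbols, both after 6 h, with -0.70 and 0.86 for EGF and -0.81 and 1.03 for EGF+AngII.

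ARRDC1, ARRDC2 and ARRDC3 were called in no comparison at either time. ARRDC1, the vesicle-budding member, stood at 14.9 to 25.0 FPM in control and at 21.7 to 24.6 FPM with EGF after 6 h, with a log2 difference of 0.22 (95% interval -0.09 to 0.52, adjusted p = 0.44). With EGF+AngII it stood at 24.0 to 27.5 FPM, and the difference was 0.36 (95% interval 0.06 to 0.66, adjusted p = 0.17). Its log2 ratio for EGF was -0.041 in the first library series and 0.483 in the second, and for EGF+AngII it was 0.116 and 0.613. The difference between EGF+AngII and AngII was 0.40 (adjusted p = 0.12), and ARRDC1 was called there without AngII replicate 3, which at 27.0 FPM stood above the other AngII libraries at 15.7 to 17.7 FPM (0.609, adjusted p = 0.0082).

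ARRDC2, another adaptor for NEDD4-family ligases, stood at 11.6, 15.95, 13.8 and 17.5 FPM in control after 6 h and at 15.4, 16.7, 15.9 and 16.5 FPM with EGF. These overlapped, and the log2 difference was 0.12 (95% interval -0.20 to 0.45, adjusted p = 0.73). With EGF+AngII it stood at 21.6, 17.98, 19.5 and 22.3 FPM, above every control library. The difference was 0.45 (SE 0.16, 95% interval 0.13 to 0.77, unadjusted p = 0.0077), which did not pass the correction over all genes (adjusted p = 0.09) and was 0.526 and 0.414 within the library series. With AngII alone, ARRDC2 stood at 13.1 to 22.5 FPM, with a log2 difference of 0.11 (adjusted p = 0.99). After 24 h it stood at 3.50 to 9.24 FPM over all libraries, with log2 differences of 0.43 for EGF (adjusted p = 0.72), 0.42 for AngII (adjusted p = 1) and 0.35 for EGF+AngII (adjusted p = 1).

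ARRDC3, the member tied to receptor trafficking, overlapped between all groups after 6 h. It stood at 8.24 to 10.7 FPM in control, 9.70 to 10.9 FPM with EGF and 8.05 to 11.8 FPM with EGF+AngII. The log2 difference was 0.09 for EGF (95% interval -0.31 to 0.49, adjusted p = 0.85) and -0.03 for EGF+AngII (95% interval -0.44 to 0.38, adjusted p = 0.96). Both intervals lie within a 1.5-fold change in either direction. After 24 h, ARRDC3 stood at 4.46 to 12.01 FPM over all libraries and ARRDC1 at 6.42 to 11.5 FPM. The log2 differences for EGF and EGF+AngII were -0.0043 and -0.15 in ARRDC3 and 0.13 and 0.27 in ARRDC1, and none was called.

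**Figure D4:**
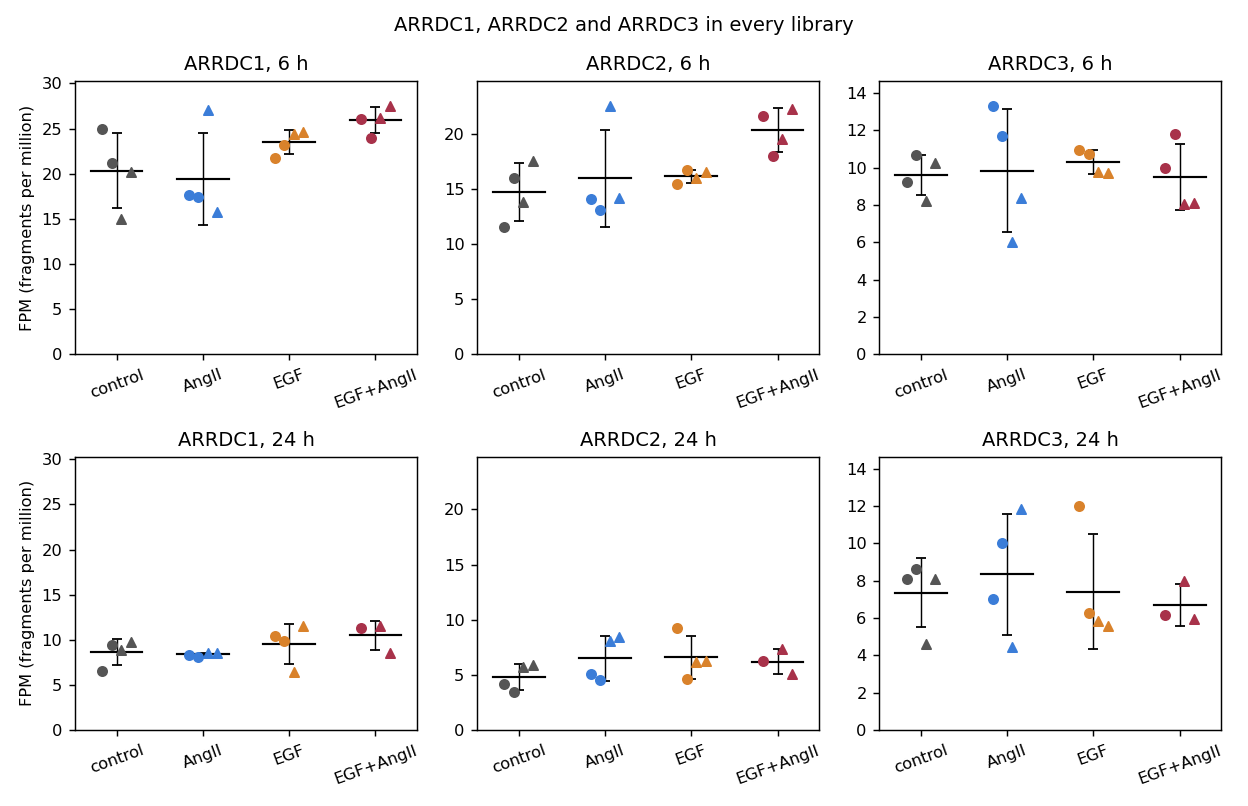
Level of ARRDC1, ARRDC2 and ARRDC3 (FPM) in every library of the 4 conditions after 6 h and after 24 h, with circles for the first and triangles for the second library series and bars for the mean ± SD. ARRDC2 with EGF+AngII after 6 h sits at 17.98 to 22.3 FPM, above the control libraries at 11.6 to 17.5 FPM, and the groups of ARRDC1 and ARRDC3 overlap after 6 h.

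The genes around the family were counted in lists of known partners and targets. Of all genes tested after 6 h, 1.73% were called with EGF (1.04% higher) and 1.95% with EGF+AngII (1.39% higher). At these shares, 0 calls in a list this short say little about the list. Of the targets of MondoA and ChREBP other than TXNIP and ARRDC4, 1 of 7 tested was called higher after 6 h of EGF and none lower. This was HK2 (hexokinase 2, the enzyme that traps glucose in the cell), which rose from 81.0 ± 2.57 to 140.2 ± 9.80 FPM (SD, n = 4), or by 0.79 on the log2 scale (SE 0.08, adjusted p = 1.7e-06). With EGF+AngII it stood at 161.3 ± 15.5 FPM and rose by 0.99 (adjusted p = 3.4e-08). The median log2 difference of the 7 targets was 0.187 for EGF and 0.202 for EGF+AngII, against -0.012 and -0.0139 over all genes tested. RGS16, a regulator of G protein signalling, was called after 24 h of EGF, from 9.43 ± 2.49 to 21.3 ± 5.69 FPM, a log2 rise of 1.17 (adjusted p = 0.047, and up to 0.18 when single libraries were left out). This call was lost in 8 of 17 alternatives. After 6 h the log2 difference of RGS16 was 0.32 for EGF (adjusted p = 0.2) and 0.52 for EGF+AngII (adjusted p = 0.027, under the 1.5-fold limit). For EGF+AngII against AngII after 6 h, RGS16 was called (0.592, adjusted p = 0.012, and up to 0.067 when single libraries were left out), and the call was lost in 4 of 17 alternatives. KLF10, picked after its values were seen, passed the FDR after 6 h but not the 1.5-fold limit. Its log2 differences were 0.469 for EGF (adjusted p = 0.0068) and 0.401 for EGF+AngII (adjusted p = 0.022).

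The factors themselves, MLXIP, MLXIPL and MLX, gave 0 calls of 3 after 6 h. MLXIP (MondoA) stood at 233.1 ± 4.49 FPM in control (SD, n = 4), and its log2 difference was -0.05 with EGF (adjusted p = 0.8) and 0.08 with EGF+AngII (adjusted p = 0.64). For MLX the values were 0.21 (adjusted p = 0.29) and 0.04 (adjusted p = 0.88).

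Of the glucose transporters, 2 of 7 tested were called higher after 6 h with EGF and with EGF+AngII, and none lower. SLC2A1 (GLUT1, the transporter that TXNIP is known to restrain) rose from 54.1 ± 11.3 FPM in control to 128.1 ± 12.3 FPM with EGF (SD, n = 4), by 1.23 on the log2 scale (SE 0.13, adjusted p = 3e-06). With EGF+AngII it stood at 154.4 ± 29.2 FPM, a rise of 1.5 (adjusted p = 9.5e-08). SLC2A3 (GLUT3) rose from 2.43 ± 0.884 to 9.04 ± 2.03 FPM with EGF, by 1.83 on the log2 scale (SE 0.31, adjusted p = 7e-04), and to 10.5 ± 4.49 FPM with EGF+AngII (2.04, adjusted p = 0.00016). It has a near copy in SLC2A14, so that its counts are uncertain where the counting could split reads between them. The median of the 7 transporters was 0.0803 for EGF and 0.16 for EGF+AngII. After 24 h, no transporter was called, with log2 differences for EGF of 0.42 in SLC2A1 (adjusted p = 0.52) and 0.85 in SLC2A3 (adjusted p = 0.62), and of 0.47 in HK2 (adjusted p = 0.34).

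The thioredoxin system, which TXNIP holds in check, gave 0 calls of 12 genes tested after 6 h with EGF or EGF+AngII. Thioredoxin (TXN) differed by 0.22 with EGF (adjusted p = 0.26) and 0.16 with EGF+AngII (adjusted p = 0.47) on the log2 scale. The median of the list was 0.0209 for EGF and 0.0101 for EGF+AngII. The thioredoxin reductase TXNRD1, picked after its values were seen, passed the FDR but not the 1.5-fold limit, with log2 differences of 0.31 (adjusted p = 0.021) and 0.30 (adjusted p = 0.028).

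Of the NEDD4-family ligases, 0 of 9 were called after 6 h in either comparison, with medians of 0.0382 for EGF and 0.0367 for EGF+AngII. NEDD4L, also picked after its values were seen, passed the FDR with log2 differences of 0.44 (adjusted p = 0.0057) and 0.42 (adjusted p = 0.0079), under the 1.5-fold limit. The ESCRT partners of ARRDC1 gave 0 calls of 4, with medians of -0.0468 and -0.0611. The list of membrane proteins that alpha-arrestins are known to handle, which leaves out the glucose transporters, gave 0 calls of 5, with medians of -0.218 and -0.117. Among them the EGF receptor gene EGFR, picked in the same way, differed by 0.35 (adjusted p = 0.032) and 0.41 (adjusted p = 0.012).

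The beta- and visual arrestins, the other branch of the arrestin fold, gave 0 calls of 3 tested after 6 h. ARRB1 and ARRB2, which bind activated receptors such as AT1R, differed by -0.24 (adjusted p = 0.34) and 0.12 (adjusted p = 0.54) with EGF, and by -0.07 (adjusted p = 0.84) and 0.10 (adjusted p = 0.64) with EGF+AngII. The medians were -0.237 and 0.0455. Of the 4 HEK293 markers tested, NEFM, a neurofilament subunit, was called higher after 6 h with EGF (0.60, 1.51-fold, adjusted p = 4e-04) and with EGF+AngII (0.73, adjusted p = 3.3e-05), and after 24 h with EGF (1.16, adjusted p = 0.001). Its call after 6 h of EGF fell under the 1.5-fold limit without control replicate 1 (0.512) and without EGF replicate 2 (0.569), 3 (0.584) or 4 (0.583). No marker of other cell types was called in these comparisons, of 3 tested after 6 h and 4 after 24 h.

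**Figure D5:**
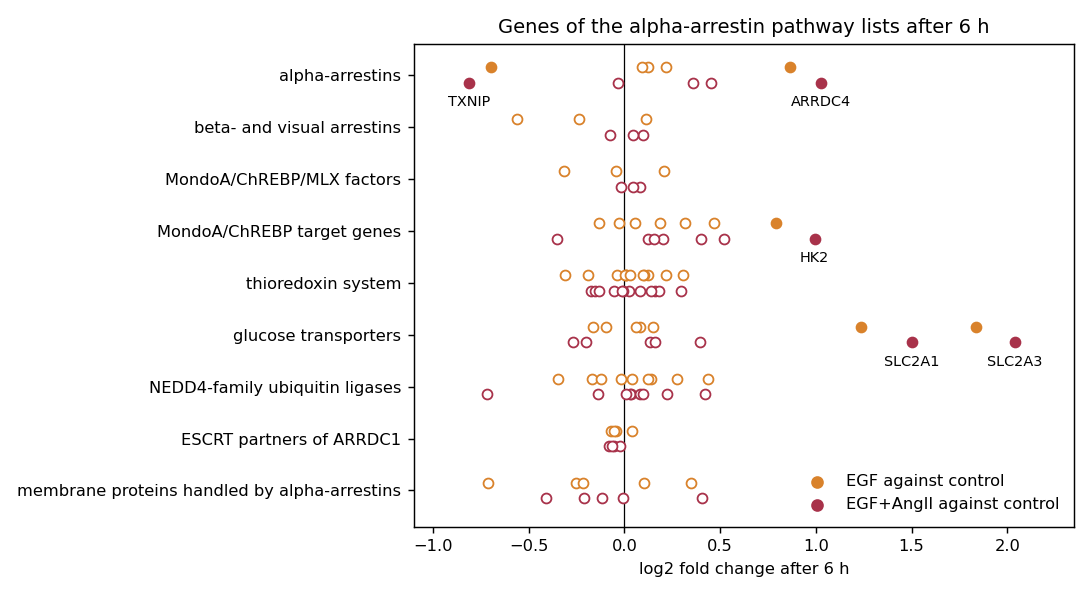
Log2 fold change against control after 6 h of EGF and of EGF+AngII for each tested gene of the family and of the lists of partners and targets, markers left out, 1 row per list and 1 point per gene, filled where the gene was called. Filled points are TXNIP on the lower side and ARRDC4, HK2, SLC2A1 and SLC2A3 on the higher side.

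Over the 16 libraries after 6 h, the genes whose level was most like that of a member were sought by Pearson's r of log2 FPM among 12082 genes. These correlations are descriptions, since the libraries share conditions and series. WDR17 (r = 0.966), ZNF33B (0.948) and ALDH6A1 (0.947) were most like TXNIP. MCOLN3 (0.981), EGR1 (0.974), an immediate early transcription factor, and NDRG1 (0.973) were most like ARRDC4. BOP1 (0.917) was most like ARRDC1, PROCR (0.887) most like ARRDC2 and RPS15A (0.818) most like ARRDC3. Between TXNIP and ARRDC4 themselves r was -0.831. For TXNIP with the members that were not called, r was -0.7 with ARRDC2, -0.615 with ARRDC1 and 0.248 with ARRDC3.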

How the data were processed

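RNA of HEK293 cells transfected with AT1R was sequenced 6 h and 24 h after addition of AngII, EGF, both or neither. Raw counts per gene were deposited, which the authors made by trimming with cutadapt 1.8.1 (Trim Galore), mapping with TopHat2 2.0.14 to hg19 and counting with featureCounts 1.4.6. A design text of the series gives HISAT2 in place of TopHat2, and 8 of the 15 columns after 24 h are named as filtered without an explanation: all of the first library series and 1 EGF+AngII library of the second.

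Groups came from the labels. The counts were scaled by TMM and tested with the quasi-likelihood F test of edgeR 4.0.16 (R 4.3.3) after filterByExpr, with the 4 conditions of a time in one fit and both times in a joint fit for differences between times. SE and 95% intervals are from the fit. Calls needed an FDR under 0.05 over all genes tested, a fold change above 1.5 and a mean above 5 FPM in the higher group (differences between times: FDR alone). The total counts per library bound the precision, and counting error was not given separately. Gene positions and exon lengths came from GENCODE on GRCh37, with TXNIP matched by symbol. The procedure was also run on simulated counts that held no difference between library series, and no conclusion is drawn from that run here.

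The members and lists were chosen with earlier results of these data known. Named were the members, every list gene called with EGF or EGF+AngII against control, MLXIP, MLX, TXN, SLC2A1, ARRB1 and ARRB2, and for each member the genes most like it. Alternatives were DESeq2 1.42.0, its size factors, other filters and thresholds, the library series as a block, U1 genes left out, only the 2 groups compared, single libraries left out and, added later, protein-coding genes only. EGF+AngII replicate 2 after 24 h was not analysed here.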

Additional observations from a re-analysis of the deposited data

Results flagged for a closer look

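Of 35 groups of 4 libraries of the members, 3 held a library that stood apart, with a gap to the nearest library that took a larger share of the group's range than Dixon's 95% critical value, and chance gives about 1 in 20 groups. ARRDC2 with AngII after 6 h stood at 22.5 FPM in replicate 3 against 13.1 to 14.2 FPM in the other 3 libraries (0.889 of the range). ARRDC3 after 24 h stood at 4.62 FPM in control replicate 3 (0.873 of the range) and at 12.01 FPM in EGF replicate 1 (0.889 of the range). None of these groups gave a called member.

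The effect of EGF on TXNIP differed between times, with a log2 effect of -0.70 after 6 h and 0.22 after 24 h, a difference of 0.912 in the joint fit (adjusted p = 0.042). With EGF+AngII the effects were -0.81 and 0.26, a difference of 1.051 (adjusted p = 0.029). TXNIP stood under every control library in 4 of 4 libraries with EGF after 6 h and in 1 of 4 after 24 h.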

How the results depend on the processing

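The calls of TXNIP and ARRDC4 after 6 h for EGF and EGF+AngII against control, and those of HK2, SLC2A1 and SLC2A3, held in all 17 alternatives run for each. For EGF+AngII against AngII after 6 h, the number of called members ranged from 2 to 3 when single libraries were left out, because ARRDC1 was added without AngII replicate 3.

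After 24 h, the number of called members for EGF against control went from 0 to 1, ARRDC4, with DESeq2, without the filter on low counts, with the library series as a block, over protein-coding genes (chosen after seeing the data) and without control replicate 2, with a range of 0 to 1 when single libraries were left out. For EGF+AngII against control it became 1 (ARRDC4) with DESeq2, without the filter, with the block and without control replicate 2, range 0 to 1, and for EGF+AngII against AngII with DESeq2, without the filter, with the block, over protein-coding genes and without AngII replicate 2, range 0 to 1. The TXNIP differences between times went from 1 call to 0 at an FDR of 0.01 for EGF and for EGF+AngII, with a range of 0 to 1 for each when single libraries were left out. The call for EGF was lost without control replicates 1, 2 or 4 or any EGF library after 6 h, or control replicates 2, 3 or 4 or EGF replicates 1 or 3 after 24 h. For EGF+AngII it was lost without control replicates 1 or 2 or EGF+AngII replicates 1, 3 or 4 after 6 h, or EGF+AngII replicate 4 after 24 h. The causes were not tested.

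Over all genes tested, the calls for EGF against control after 24 h numbered 7, and 55 with DESeq2, 54 without the filter, 35 with the block, 20 over protein-coding genes, 2 at an FDR of 0.01 and 2 with only the 2 groups compared. For EGF+AngII against control they numbered 6, and 27, 121, 32, 15, 3 and 2, and 11 with U1 genes left out. For EGF+AngII against AngII they numbered 9, and 36, 51, 31 and 22 in the first 4 of these. For the differences between times they numbered 38 for EGF and 27 for EGF+AngII, and 116 and 69 with DESeq2, 85 and 94 without the filter, 77 and 60 with the block, 8 and 7 at an FDR of 0.01, and 63 for EGF over protein-coding genes. Without the FPM and fold change limits, the calls after 6 h rose from 322 to 1112 for EGF, from 363 to 1136 for EGF+AngII and from 348 to 1104 for EGF+AngII against AngII. Without the filter on low counts, comparisons with 0 calls gave 17 (AngII), 10 (EGF+AngII against EGF) and 46 (interaction) after 6 h and 20, 61 and 19 after 24 h.

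Directions turned only when single libraries were left out, all in differences that were not called. After 6 h the log2 ranges were -0.111 to 0.21 for ARRDC2 with AngII, -0.151 to 0.0438 for ARRDC3 with EGF+AngII, -0.0803 to 0.00886 for MLXIP with EGF, -0.0274 to 0.0911 for MLX and -0.114 to 0.0236 for ARRB1 with EGF+AngII, and -0.0575 to 0.101 for the interaction in TXNIP. After 24 h they were -0.32 to 0.108 for ARRDC3 with EGF, -0.272 to 0.00732 for ARRDC4 with AngII, -0.0866 to 0.193 for its interaction and -0.063 to 0.196 for TXNIP with EGF+AngII against EGF. The ARRDC4 difference between times with EGF ranged from -0.168 to 0.0553.

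No paired analysis was possible because no replicate number stands in the labels. Depth limits ARRDC1, ARRDC2 and ARRDC3 most, with 32 to 203 counts per library after 6 h and 50 to 192 after 24 h, against 128 to 467 and 286 to 1253 for TXNIP and ARRDC4.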
